A study of Mus musculus with 2 samples.

Results

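Cytosolic ribosomal protein genes were followed through the cell cycle of mouse neural progenitors by single-cell RNA-seq. The genes were chosen by symbol alone, as those beginning with Rpl or Rps and a digit together with the P-stalk proteins and *Rpsa*, leaving out the S6 kinases and pseudogene symbols with "-ps". This gave 63 of the 10666 genes in the expression table. Of these, 33 encode large-subunit proteins and 26 encode small-subunit proteins. The other 4 fit the naming rule without being core subunits: *Rps27l* and *Rpl7l1* are relatives of subunit genes, *Rps19bp1* encodes a protein that binds RPS19, and *Rpl37rt* is annotated as a processed copy of *Rpl37*. *Rplp0*, *Rpl12* and *Rpl10*, among other subunit genes, were not analysed here.

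The cells came from neurospheres, balls of neural progenitors that grow in suspension, here derived from wild-type C57BL/6 dorsal telencephalon at embryonic day 14.5. Both cultures were untreated, were passaged several times in medium with 10 ng/ml EGF and 10 ng/ml bFGF, and were dissociated before droplet capture, and nothing in the sources says which animals they came from. Culture 1 held 5748 cells with a median of 19477 total UMIs, culture 2 held 7057 cells with a median of 14637, and 48 cell barcodes occurred in both libraries. With 2 libraries of 1 condition there were no groups to test, so each result is given for each culture and no p-value is given.

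Of 43 marker genes listed for the cell types such cultures could hold, 14 were in the table. Radial glial genes had the highest summed mean value, 138 in culture 1 and 135 in culture 2 over 6 genes, most of it *Fabp7* and *Vim*. *Fabp7*, a fatty acid binding protein of radial glia, had mean values of 91.9 and 90.7, and *Vim* had 29.9 and 29.6. *Hes1* had only 0.868 and 0.900, and *Pax6* 0.215 and 0.205, above 0 in 21.1% and 23.1% of cells. The oligodendrocyte progenitor genes summed to 6.00 and 5.92, nearly all of it *Olig2*, which was above 0 in 97.3% and 91.9% of cells. The neuronal genes summed to 1.87 and 1.79, nearly all of it *Map2*, with *Dcx* and *Gad1* at or below 0.0918, and *S100b* of astroglia had 0.3004 and 0.148. The listed genes of microglia, endothelium, blood, fibroblasts and intermediate progenitors, and 4 genes listed for dissociation stress, were not analysed here. Every cell makes ribosomes, so no cells that should lack these transcripts were present to gauge free RNA.

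A ribosome is built from a small subunit, which reads the mRNA, and a large subunit, which joins the amino acids, and each carries one copy of almost every ribosomal protein. The mRNAs of these proteins belong to the 5′ terminal oligopyrimidine (TOP) class. They begin with a C followed by a run of pyrimidines, and through this start their translation is controlled by the growth signal mTOR. Proliferating cells such as neural progenitors spend much of their mRNA on ribosomal proteins.

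The TOP start was looked for in the RefSeq sequences around annotated transcription starts (GRCm38.p6), which were matched for 48 of the 63 genes. A C followed by at least 4 more pyrimidines on the gene's own strand stood exactly at the annotated start in 10 of the 48 (20.8%), against 3.01% of all 27025 genes with such a sequence. Such a C lay within 5 bases of the start in 22 of the 48 (45.8%), against 21.2% of all genes. Shown here are 6 of those with the C at the annotated start, then *Rpl27a* and *Rps27l*, whose levels along the cell cycle are described later. Each line gives the 10 bases before the start and the 20 from it, 5′ to 3′, with the C nearest the start that met this rule and the pyrimidines after it in capitals. Pyrimidines can also stand directly before the capitals, 7 of them in *Rpl35*, 5 in *Rplp2*, 3 in *Rpl27a* and 1 or 2 in *Rps6*, *Rpl38*, *Rps18* and *Rps27*.
Rps6 (chr4:86857348-86857377, minus strand): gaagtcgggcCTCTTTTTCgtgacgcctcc
Rpl35 (chr2:39005112-39005141, minus strand): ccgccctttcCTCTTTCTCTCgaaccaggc
Rpl38 (chr11:114668570-114668599, plus strand): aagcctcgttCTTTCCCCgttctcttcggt
Rps18 (chr17:33955646-33955675, minus strand): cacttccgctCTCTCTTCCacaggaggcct
Rps27 (chr3:90213629-90213658, minus strand): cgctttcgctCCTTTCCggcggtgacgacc
Rplp2 (chr7:141447641-141447670, plus strand): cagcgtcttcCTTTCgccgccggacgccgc
Rpl27a (chr7:109519185-109519214, plus strand): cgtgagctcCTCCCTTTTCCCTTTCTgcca
Rps27l (chr9:66946076-66946105, plus strand): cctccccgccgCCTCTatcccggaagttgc
In *Rpl27a* the capitals begin 1 base upstream of the annotated start, and in *Rps27l* they begin at the second transcribed base, after a purine, and are 5 bases long. A match is a description of the sequence and does not show that a transcript is translated as a TOP mRNA.

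Ribosomal protein transcripts held 24.0% of the summed expression on the mean of both cultures. The values are depth-normalized by the authors on a linear scale. The share is the sum over the 63 genes divided by the sum over the 10666 genes analysed in each cell, not over all transcripts of the cell. The share averaged 22.8% (SD 2.90 over 5748 cells) in culture 1 and 25.2% (SD 3.38 over 7057 cells) in culture 2. The middle 90% of cells lay between 18.3 and 27.8% in culture 1 and between 19.8 and 30.8% in culture 2, so the cells of both cultures overlap widely. Large-subunit genes held 12.1% and 13.4% of the total and small-subunit genes 10.46% and 11.5%. The ratio of the large to the small sum was 1.16 (SD 0.0699) in culture 1 and 1.17 (SD 0.0747) in culture 2, and across the cells of a culture the log2 sums correlated at 0.909 and 0.905 (5748 and 7057 cells, which share a library and the scaling for depth). Transcripts for both subunits thus kept nearly the same proportion from cell to cell.

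Individual subunit genes spanned an 11.3-fold range of mean value. A 3′ library reads 1 tag per molecule, so the values were not divided by length. They compare numbers of molecules between genes only as far as the genes were captured and counted alike, which was not tested. *Rpl41*, which encodes the smallest ribosomal protein (25 residues), stood highest, with 126 in culture 1 and 136 in culture 2, or 4.74% and 4.73% of the ribosomal protein sum. *Rps19* (75.9 and 81.3) and *Rps2* (73.5 and 79.4) of the small subunit were also among the highest. The 6 after *Rps2*, from *Rps18* (68.7 and 70.7) through *Rpl13a*, *Rpl32*, *Rplp1* and *Rps23* to *Rps27a* (57.9 and 60.9), differed from their neighbours by less than the SD of 12.6 to 16.6 over cells. *Rps27a* encodes ubiquitin fused to a small-subunit protein. The 10 highest genes together held 27.2% and 26.9% of the ribosomal protein sum.

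**Figure D1:**
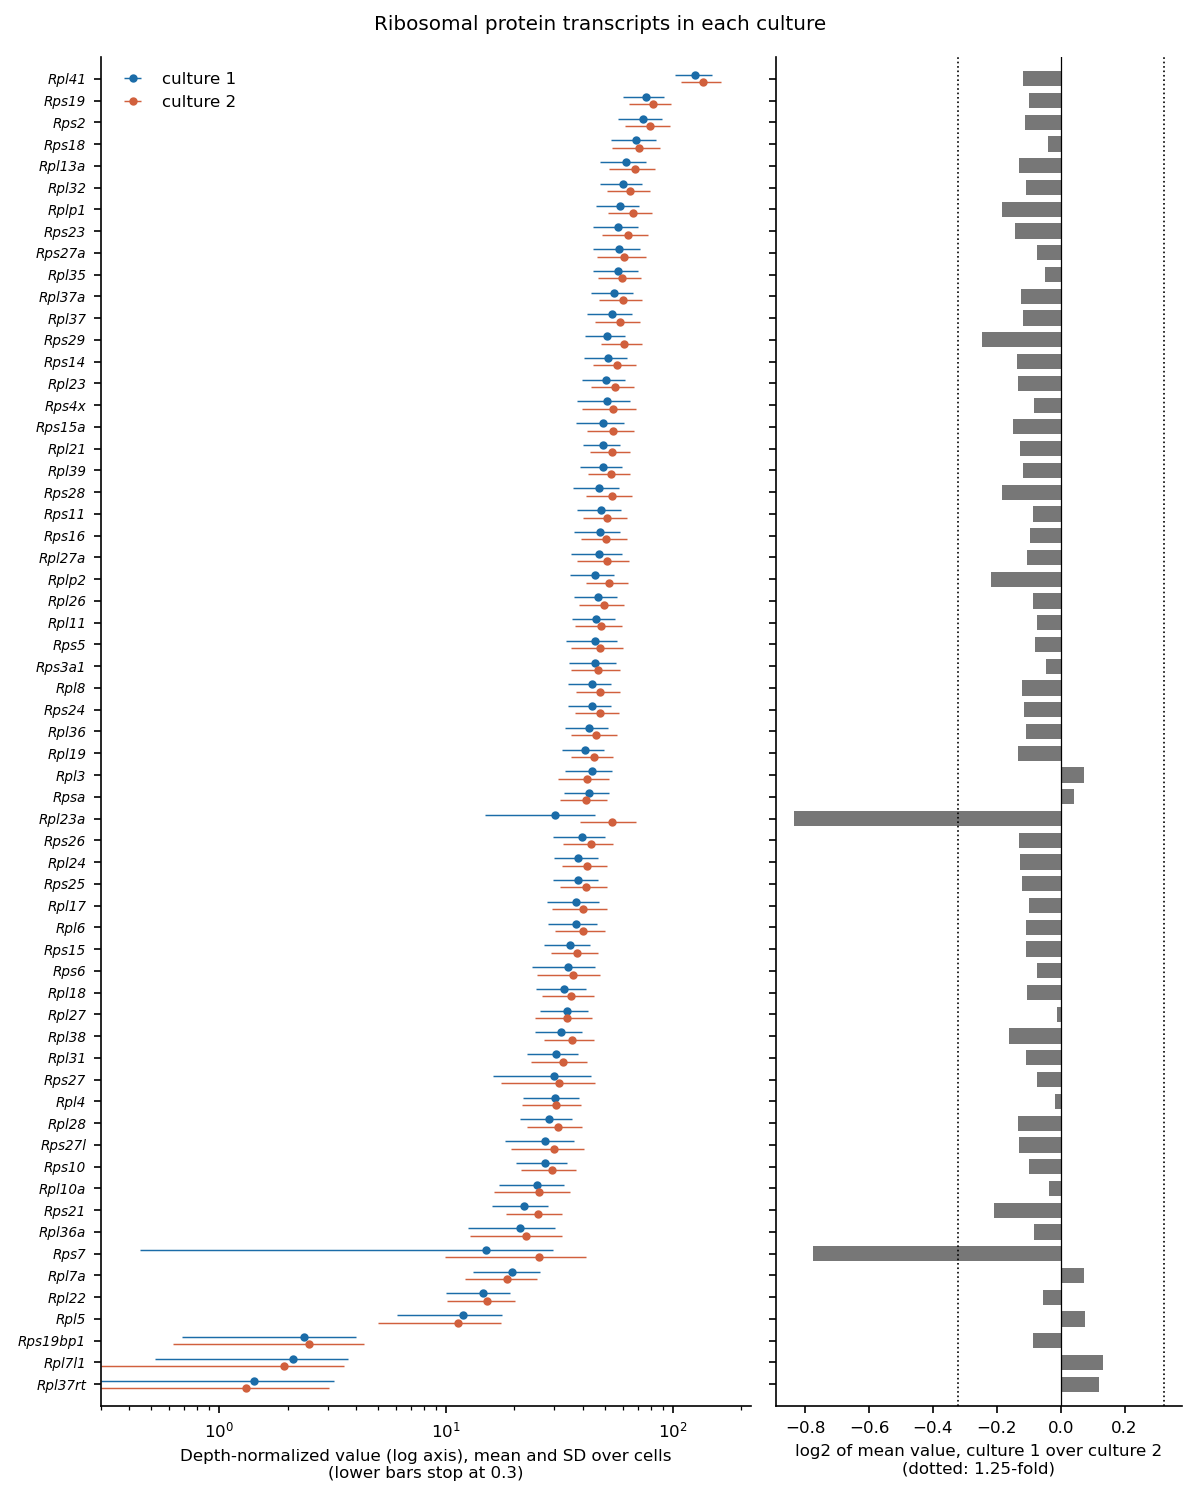
Mean depth-normalized value of 61 of the 63 genes in culture 1 (blue) and culture 2 (orange) on a log axis, with bars for the SD over cells (left), and the log2 ratio of culture 1 to culture 2 (right, dotted lines where one mean is 25% above the other). Rpl41 is highest at 126 and 136, the genes Rps19bp1, Rpl7l1 and Rpl37rt lie far below the subunits, and Rps7 and Rpl23a alone pass the dotted line.

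Even the lowest subunit genes were abundant. The mean of all 59 subunit genes over both cultures exceeded 10, and 57 of the 63 genes were above 0 in at least 99% of cells of both cultures. The lowest subunits were *Rpl5* (11.8 and 11.2), which joins 5S rRNA to the large subunit, and *Rpl22* (14.5 and 15.1). *Rpl11*, the partner of *Rpl5* in the 5S particle, had 45.8 and 48.3, so the measured values of the partners were far from equal. The P-stalk genes *Rplp1* (58.5 and 66.3) and *Rplp2* (45.1 and 52.5), whose proteins recruit elongation factors, lay above the group medians of 43.8 and 46.9. Of the X-linked genes, *Rps4x* (51.2 and 54.3) and *Rpl39* (49.2 and 53.4) lay above the medians too, and *Rpl36a* (21.3 and 22.5) lay below them.

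The 4 genes that are not core subunits were 1 abundant gene and 3 rare ones. *Rps27l*, at 27.4 and 29.9, was nearly as high as its parent *Rps27* at 29.8 and 31.4, and both encode proteins of 84 residues. *Rpl37rt* had 1.43 and 1.31 where *Rpl37* had 53.9 and 58.5, and was at 0 in 47.7% and 54.0% of cells. The last 300 bases of *Rpl37rt* hold a stretch of 60 bases that also occurs in a transcript of *Rpl37*, and how the authors' counting divided such reads between them was not tested, so the value of *Rpl37rt* is uncertain. *Rps19bp1* had 2.35 and 2.49 where *Rps19* had 75.9 and 81.3. *Rpl7l1* had 2.11 and 1.92.

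The share changed little over the cell cycle. Position is the authors' tricycle angle, from 0 to 2π. The angle was built from cell-cycle genes, and for *Top2a*, *Pcna* and *Cdc20*, which mark replication and mitosis, a curve fitted along it explained a share of the variance (R²) of 0.430 to 0.693. These values give a scale for the R² below and are no check of the angle. Cells between π/2 and 3π/4 were called S by Seurat in 99.2% of cases in culture 1 and 99.05% in culture 2, those between π and 5π/4 G2M in 98.4% and 99.1%, and those between 7π/4 and 2π G1 in 99.89% and 99.3%. The first and the last of these classes are called the S class and the G1 class. A curve of 2 harmonics ranged over 0.792 percentage points in culture 1, from 22.4% at 0.835π to 23.2% at 1.65π. It ranged over 1.83 points in culture 2, from 24.1% at 0.67π to 25.9% at 1.88π. Its R² was 0.0105 and 0.0426, and in each culture the range was below the SD over cells. With 3 harmonics the range was 1.29 points in culture 1 and 2.06 in culture 2, and the means of 8 classes of position ranged over 1.74 points in each. Both minima lay in the S and early G2M positions. The maximum of culture 1 fell where cells are scarce, with 64 cells between 3π/2 and 7π/4. Without the cells from 5π/4 to 7π/4, an alternative chosen after seeing the data, its range was 0.788 and its maximum was at 0.105π.

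**Figure D2:**
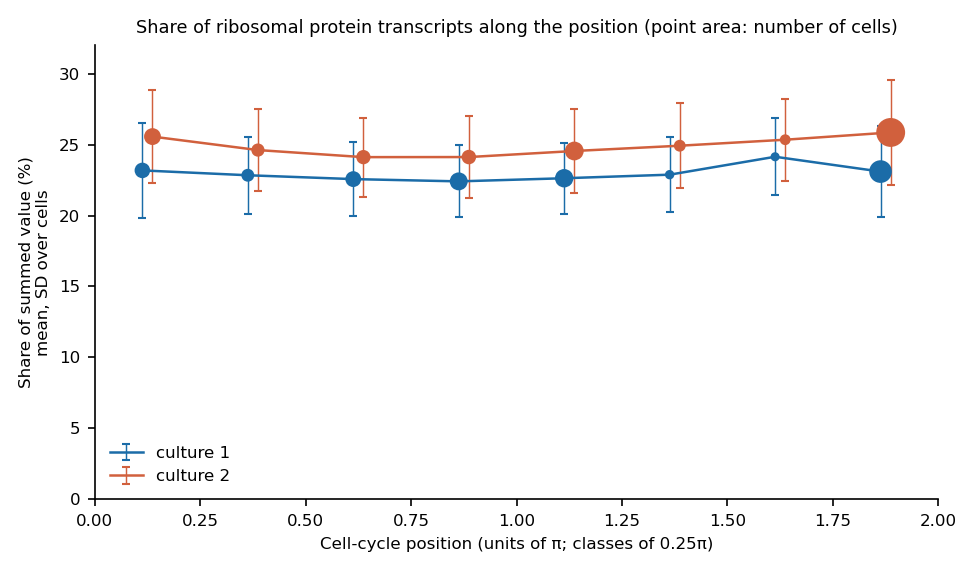
Share of the summed value held by the 63 genes in 8 classes of cell-cycle position of π/4, as mean and SD over cells for culture 1 (blue) and culture 2 (orange), with point area following the number of cells. The share stays between 22.4 and 24.2% in culture 1 and between 24.1 and 25.9% in culture 2, and the bars of the classes overlap.

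Stages called by Seurat gave the same picture. The share was 23.1% (SD 3.24) in G1, 22.6% (SD 2.66) in S and 22.6% (SD 2.54) in G2M cells of culture 1. In culture 2 it was 25.8% (SD 3.600), 24.4% (SD 2.85) and 24.7% (SD 3.02). Total UMIs differ between positions as well. The median was 22966.5 between 3π/4 and π against 18437 between 7π/4 and 2π in culture 1, and 17148 against 13991 in culture 2. Multiplied by the total UMIs, the share gave 5345 and 4288 at those positions in culture 1 and 4394 and 3766 in culture 2. This product was thus higher between 3π/4 and π than in the G1 class, while the share was lower. In culture 2 the product was highest between π and 5π/4, at 4529. The share covers only the 10666 genes analysed, so the product stands in for content per cell and is no count of ribosomal protein UMIs. With log2 UMIs and its square in the fit, the range of the share was 0.577 points in culture 1 and 2.13 in culture 2. The ratio of the large to the small subunit sum was lowest between π and 5π/4 in both cultures, at 1.14 (SD 0.0622) and 1.15 (SD 0.0661), and the classes differed by less than these SDs.

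Gene by gene, few ribosomal protein transcripts followed the position. A gene was called when the curve explained at least 5% of the variance of log2(value + 1) between cells (R² of at least 0.05) in both cultures. This held for 2 of the 63 genes (3.17%), *Rps27l* and *Rps14*, against 4.01% of all 10666 genes, so the share called is close to that of the table as a whole. Among the 174 genes above 0 in at least 99% of cells, for which the background was 9.77%, 2 of 57 ribosomal protein genes (3.51%) were called. At a threshold of 0.02 the genes were *Rps27l*, *Rps14*, *Rpl19*, *Rpl27a*, *Rps19* and *Rpl38*, 6 of 63 (9.52%) against 8.34%. At 0.1 there were 0 (against 2.25%), and with depth in the fit at 0.05 there were 2, *Rps27l* and *Rpl27a* (3.17% against 3.86%). The range of the fitted log2 curve reached 0.5 in both cultures for *Rps27l* alone (1.59% against 3.31%), and the median range over the 63 genes was 0.108 in culture 1 and 0.144 in culture 2.

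**Figure D3:**
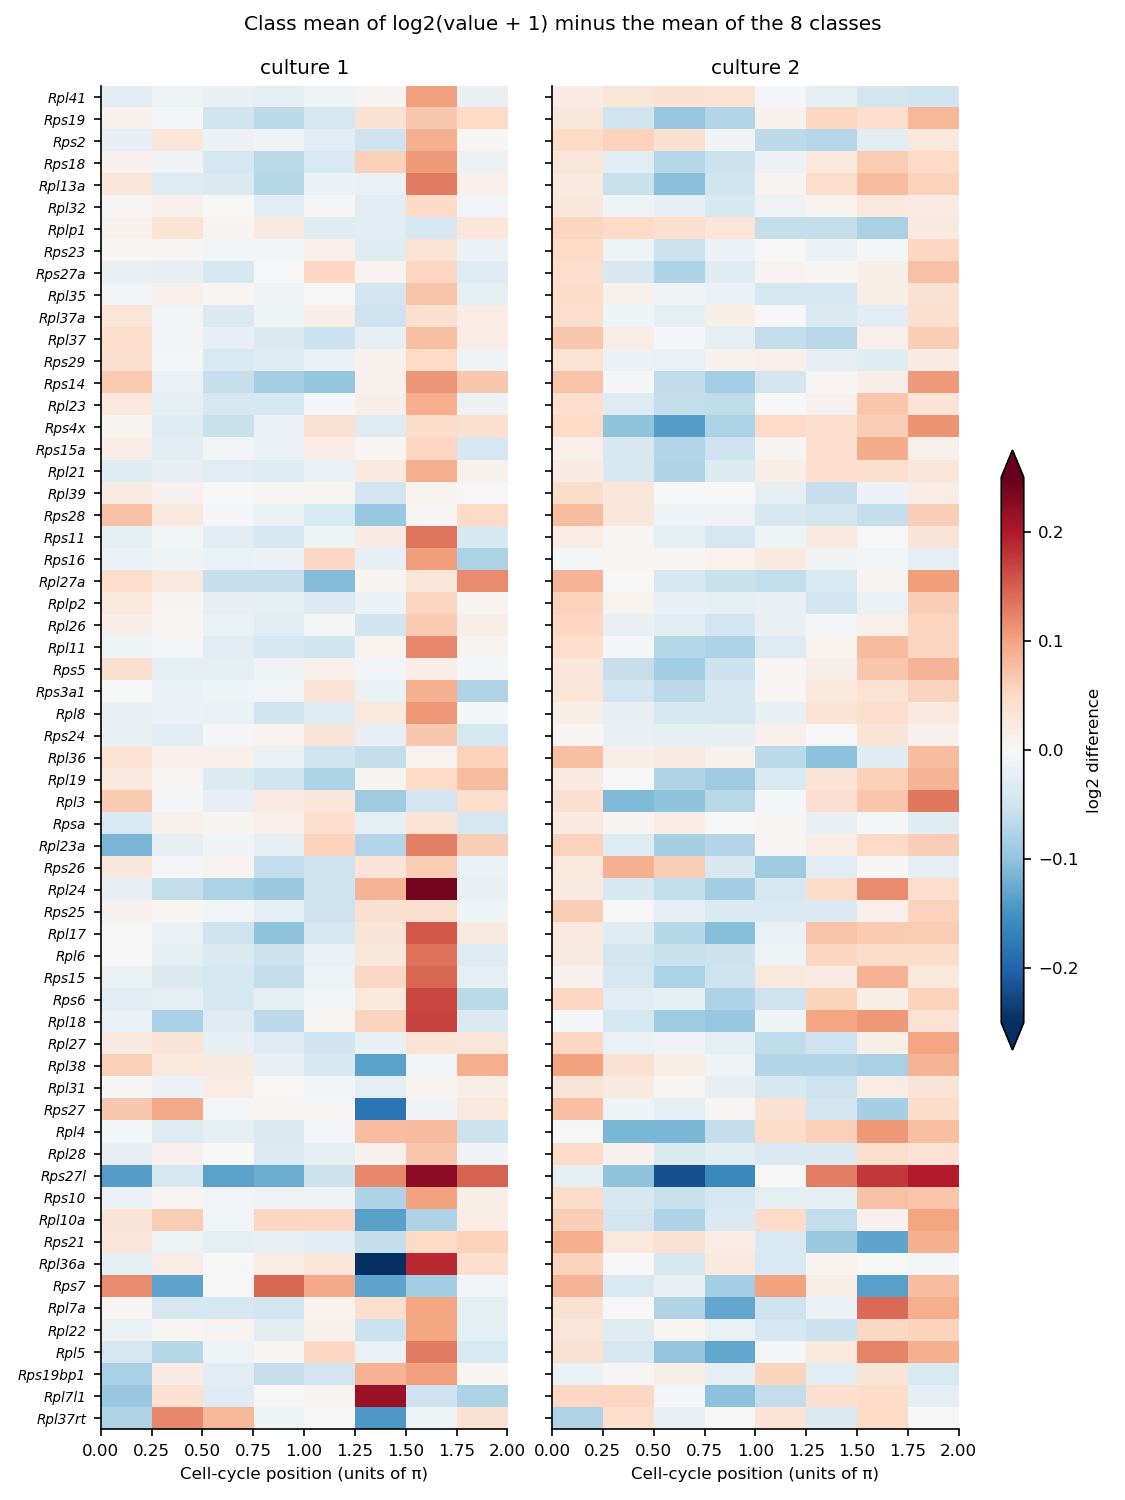
Mean log2(value + 1) of 61 of the 63 genes in 8 classes of position minus the mean of the 8 classes, in culture 1 (left) and culture 2 (right), ordered by mean level, with colours ending at 0.25 either way. Rps27l stands out in both cultures, 55 of the 63 genes are lower between π/2 and 3π/4 than between 7π/4 and 2π in culture 2, and the marked column of culture 1 between 3π/2 and 7π/4 rests on 64 cells.

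*Rps27l* was higher in the G1 class than in the S class. Its product can stand in for RPS27 in the small subunit, and the gene is a known target of the tumour suppressor p53. Its mean log2(value + 1) between 7π/4 and 2π was 4.91 in culture 1 and 5.001 in culture 2, against 4.63 and 4.58 between π/2 and 3π/4. In both cultures the G1 class was thus above the S class, by 0.28 and 0.42 on the log2 scale. The curve ranged over 0.58 and 0.54 with an R² of 0.0566 and 0.0887. The cells between 0 and π/4, also called G1 by Seurat in 85.2% and 80.6% of cases, did not share the high level. In culture 1 they had 4.62, the lowest of the 8 classes, and in culture 2 they had 4.78. Over all cells called G1 the mean was 4.84 and 4.96, against 4.65 and 4.64 over those called S. *Rps27*, its parent, differed between the same G1 and S classes by 0.03 and 0.07, with an R² of 0.00447 in culture 1.

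The genes whose values followed *Rps27l* most closely across cells were not ribosomal. With the lower correlation of both cultures as the measure, the first 3 of all genes outside the group were *Bax* (0.417 and 0.394), *Cdkn1a* (0.416 and 0.376) and *Ccng1* (0.381 and 0.315), over 5748 and 7057 cells that share a library and the scaling for depth. *Bax* promotes apoptosis, *Cdkn1a* encodes the cell-cycle inhibitor p21 and *Ccng1* encodes cyclin G1, and each is a textbook target of p53. These genes were named after their values were seen. Within the group the closest were *Rps19* (0.273 and 0.355) and *Rpl19* (0.229 and 0.213), and the correlation with *Rps27* was 0.024 and 0.084. *Bax* had an R² along the position of 0.0598 and 0.0638 and, like *Rps27l*, was higher between 7π/4 and 2π than between π/2 and 3π/4, by 0.32 and 0.47 on the log2 scale.

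**Figure D4:**
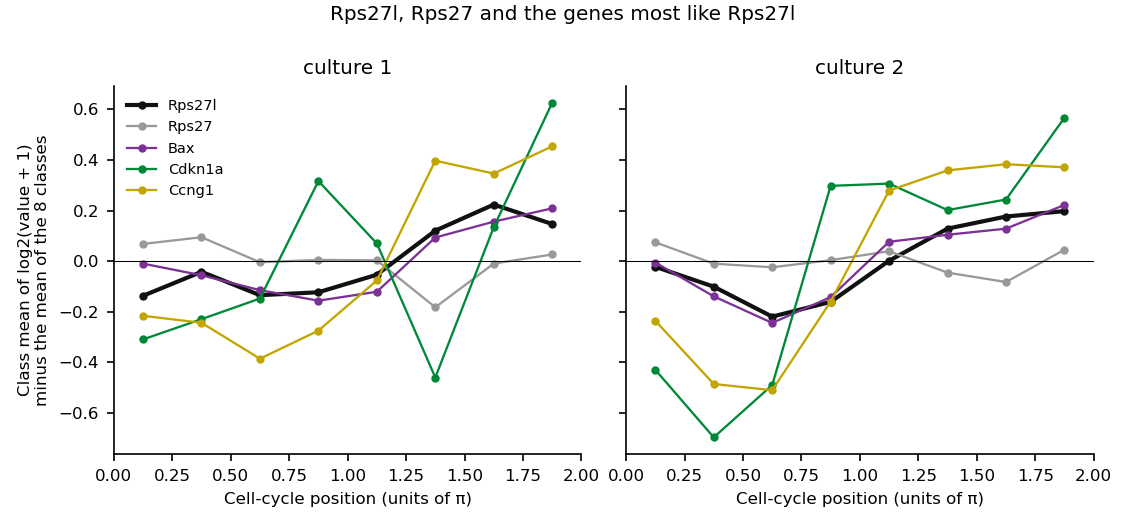
Class means of log2(value + 1) minus the mean of the 8 classes for Rps27l, its parent Rps27, and Bax, Cdkn1a and Ccng1, in culture 1 (left) and culture 2 (right). Rps27l and Bax are both highest between 3π/2 and 2π, Rps27l is lowest between 0 and π/4 in culture 1 and between π/2 and 3π/4 in culture 2, and Rps27 stays flatter except for a dip in a class of 85 cells in culture 1.

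*Rps14*, a small-subunit protein gene, had the smaller of the called patterns. Its mean log2(value + 1) was 5.76 and 5.89 between 7π/4 and 2π and 5.64 and 5.72 between π/2 and 3π/4, a difference of 0.13 and 0.17. The range of its curve was 0.18 and 0.19 with an R² of 0.0565 and 0.0580. With depth in the fit its R² in culture 1 was 0.0462, below the threshold. Its closest partners were other ribosomal proteins, *Rpl32* (0.421 and 0.386) and *Rps18* (0.430 and 0.380), and its median correlation with the other members was 0.309 and 0.278, where that of *Rps27l* was 0.0865 and 0.125.

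Next by R² came *Rpl19* (0.0397 and 0.0442) and *Rpl27a* (0.0516 and 0.0360) of the large subunit and *Rps19* (0.0247 and 0.0400) of the small subunit. *Rpl19* was higher in the G1 than in the S class by 0.11 and 0.16, *Rpl27a* by 0.18 and 0.15 and *Rps19* by 0.10 and 0.18. *Rpl38* (0.0224 and 0.0341), *Rps28* (0.0190 and 0.0225) and *Rpl24* (0.0181 and 0.0272) completed the 8 highest, and the curves of these last 3 ranged over at most 0.25 on the log2 scale. *Rpl3*, which lines the centre where peptide bonds form, passed 0.05 in culture 2 (0.0556) and not in culture 1 (0.0116). Among the larger ranges after *Rps27l* were those of *Rps7*, *Rpl17*, *Rpl24*, *Rpl3*, *Rpl18* and *Rps27*, between 0.19 and 0.23 in the culture where each was smaller, and several of these curves have their extremes in the thinly filled classes between 5π/4 and 7π/4.

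Small differences in 1 direction were common, mainly in culture 2. The mean log2 value was higher between 7π/4 and 2π than between π/2 and 3π/4 for 55 of the 63 genes (87.3%) in culture 2, against 41.8% of all genes. In culture 1 this held for 39 (61.9%) against 48.3%, and in both cultures for 36 (57.1%) against 33.1%. Many abundant genes leaned the same way. Of the 174 genes above 0 in at least 99% of cells, 57 of them in the group, 134 were higher in culture 2 and 111 in culture 1. The median difference over the 63 genes was 0.08 in culture 2 and 0.02 in culture 1, against 0.10 and 0.04 over those 174. The difference exceeded 0.1 in both cultures for *Rps27l*, *Rps14*, *Rpl19* and *Rpl27a* only, 4 of 63 (6.35%) against 3.96%. Across the 59 subunit genes the difference ran with protein size in culture 2 (Spearman 0.605) and not in culture 1 (−0.126), over genes that share the same cells.

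Other genes of protein synthesis were read along the same position, where 4.01% of all genes were called. *Fau* and *Rack1*, ribosome components outside the naming rule, did not reach an R² of 0.05 in both cultures. Of 16 elongation and initiation factors and further TOP mRNAs, 1 was called, *Nap1l1*, a histone chaperone with 0.50 and 0.52 lower values in the G1 than in the S class on the log2 scale. Of 19 measured ribosome biogenesis genes, 1 was called, *Nop56*, which belongs to the particles that methylate rRNA (R² 0.126 and 0.0630). In culture 1 alone 4 of the 19 reached 0.05, against 5.6% of all genes, and in culture 2 alone 1 did, against 4.26%. *Nop58* (0.127 and 0.0498) and the nucleolin gene *Ncl* (0.103 and 0.0465) fell just short in culture 2. However, 18 of the 19 were higher in the S than in the G1 class in both cultures, which held for 5 of the 63 ribosomal protein genes and 4580 of all 10666. *Nop56* differed by −0.83 and −0.78 and *Ncl* by −0.49 and −0.43, as G1 minus S. Of 55 mitochondrial ribosomal protein genes, 2 were called.

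Across cells, ribosomal protein transcripts varied together. The median correlation between pairs of the 57 most widely detected genes was 0.298 in culture 1 and 0.275 in culture 2, over 1596 pairs that share cells, library and scaling. With the mean log2 value of the 63 genes as the reference, the 10 other genes most like it were *Rack1* (0.473 and 0.471), *Eef1a1* (0.461 and 0.549), *Fau* (0.417 and 0.408), *Eef1g*, *Eef1b2*, *Eef2*, *Tpt1*, *Naca*, *Ybx1* and *Snrpg*. *Rack1* and *Fau* are themselves ribosome components, and *Eef1a1* and *Eef2* are elongation factors. All of these also correlated at 0.35 or above in both cultures when values were scaled to the sum of the other genes instead.

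The most negative correlations, named after their values were seen, included *Dbi* (−0.367 and −0.416), which binds acyl-CoA, *Slc1a3* (−0.342 and −0.393), the glial glutamate transporter, *Mt3* (−0.304 and −0.371), a metallothionein of the brain, and *Igfbp2* (−0.269 and −0.445), which binds insulin-like growth factors. In the 20% of cells with the lowest *Slc1a3* the ribosomal share was 24.5% in culture 1 and 27.0% in culture 2, and in the highest 20% it was 21.1% and 23.2%. *Slc1a3* was named for its negative correlation with the group, so this gap only describes that correlation in percent. *Fabp7* separated the share in culture 1 (24.4% against 21.2%) more than in culture 2 (25.9% against 24.4%). Of the 6 measured radial glial genes, 4 had a correlation below 0 in both cultures, *Slc1a3*, *Fabp7* (−0.290 and −0.111), *Hes1* (−0.110 and −0.0998) and *Pax6* (−0.0553 and −0.0581). *Nes* (−0.0130 and 0.0679) and *Vim* (−0.0456 and 0.129) differed in sign between cultures. Scaled to the sum of the other genes, the correlation of *Slc1a3* was −0.327 and −0.357. A share falls when other transcripts rise, and the part of this in the negative correlations was not tested.

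The cultures differed in the group as a whole by a small amount and in 2 genes by a large one. The mean was lower in culture 1 for 57 of the 63 genes (90.5%), against 31.6% of all genes, with a median log2 ratio of −0.11 where that of all genes was 0.09. Of the 174 genes above 0 in at least 99% of cells, 108 were lower in culture 1, with a median of −0.04. The group supplies 57 of these 174 and nearly all of its genes were lower. The 108 therefore do not show that abundant genes outside the group leaned the same way. Divided by the sum over the group, 22 of the 63 were lower, against 14.7% of all genes. The ratio lay within 0.25 of 0 on the log2 scale for 61 genes. One mean was at least 25% above the other for 2 genes (3.17%, against 19.2% of all genes). Both, *Rpl23a* and *Rps7*, were lower in culture 1 (background 4.4%), and none of the 63 was higher (background 14.8%). With 1 library a side the difference between cultures and that between libraries cannot be told apart.

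*Rpl23a*, which sits by the exit of the peptide tunnel, had 30.2 in culture 1 and 53.8 in culture 2, a log2 ratio of −0.83. *Rps7*, of the small subunit, had 14.97 and 25.6, a log2 ratio of −0.77. In cells with 10000 to 20000 UMIs the ratios were −0.82 and −0.72, and in cells called M.G1 by the SchwabeCC method −0.78 and −0.82. After these came *Rps29* (−0.25), the P-stalk gene *Rplp2* (−0.22) and *Rps21* (−0.21). At the other end lay *Rpl7l1* (0.13), *Rpl37rt* (0.12), *Rpl5* (0.08), *Rpl7a* (0.07) and *Rpl3* (0.07). Without *Rpl23a* and *Rps7*, the log2 ratio of the other 57 subunit genes ran with the length of the protein (Spearman 0.535), from a median of −0.12 for 9 genes of up to 100 residues to −0.08 for 15 genes over 200. Depth differs between the libraries as well, and its part in this relation was not tested.

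In *Rps7* and *Rpl23a* a class of cells with almost no transcript stood beside cells with high values. *Rps7* was below 2 in 2019 of 5748 cells of culture 1 (35.1%, exact 95% binomial interval 33.9 to 36.4%) and in 751 of 7057 cells of culture 2 (10.6%, 9.93 to 11.4%). The remaining cells averaged 23.0 and 28.7, so most of the difference in the mean lay in the number of cells near 0. Cells below 2 had a median of 19608 UMIs in culture 1 against 19386 in the others, and 13977 against 14717.5 in culture 2. *Rpl23a* was below 2 in 8.47% (7.77 to 9.22%) of cells of culture 1 and 0.269% (0.162 to 0.420%) of culture 2, and the remaining cells still differed, at 32.9 and 53.9. Cells below 2 for *Rpl23a* were shallower, with a median of 15962 UMIs against 19769 in the others in culture 1 and 12494 against 14643 in culture 2, and the part of depth was not tested. These intervals cover counting error only.

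The cells near 0 for each gene overlapped in part, and the values of the genes were nearly uncorrelated. In culture 1, 35.1% of cells were below 2 for *Rps7*, 8.47% for *Rpl23a* and 2.78% for both. The correlation between the genes was −0.020 in culture 1 and 0.085 in culture 2. Cells with little *Rps7* had an ordinary ribosomal share, 22.8% against 22.9% in culture 1 and 24.4% against 25.3% in culture 2. In culture 1 the most negative correlation of any gene was −0.0734 with *Rps7* (*Slc1a3*) and −0.0604 with *Rpl23a* (Piezo2), and in culture 2 it was −0.104 with *Rps7* (*Dbi*) and −0.213 with *Rpl23a* (*Igfbp2*).

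**Figure D5:**
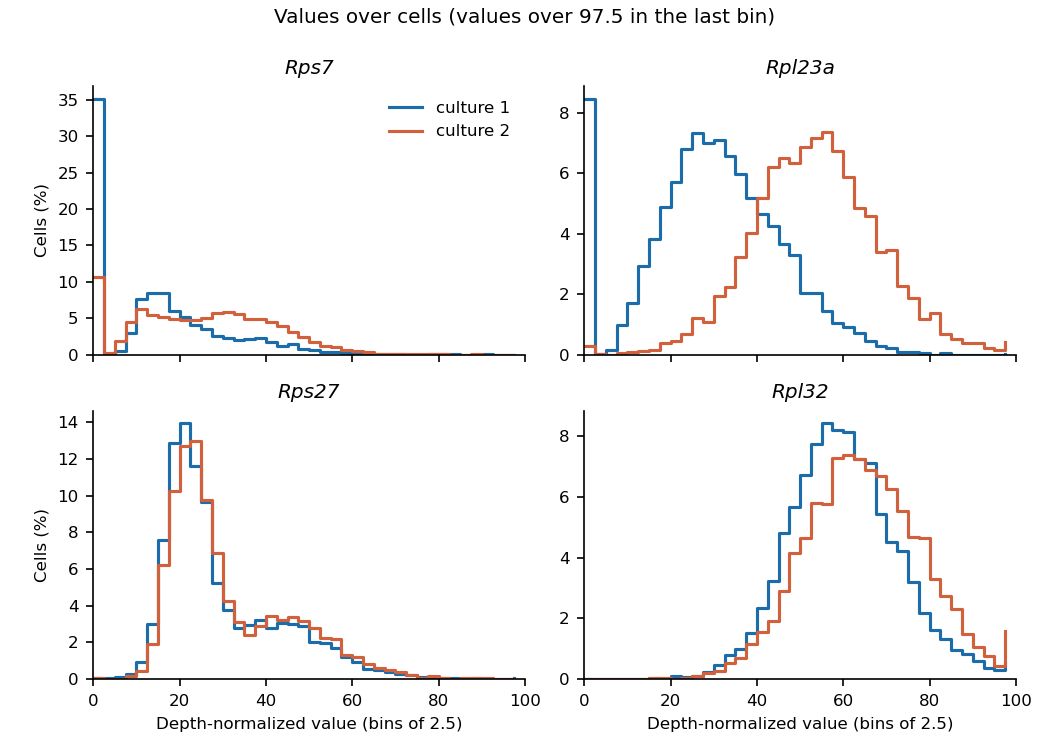
Percent of cells by depth-normalized value, in bins of 2.5, for Rps7, Rpl23a, Rps27 and Rpl32 in culture 1 (blue) and culture 2 (orange). Rps7 has 35.1% of culture 1 cells below 2, Rpl23a shifts as a whole between cultures, Rps27 has a second hump above 35 in both, and Rpl32 forms a single hump.

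*Rps7* and *Rps27* had more than 1 hump of values above 0. In culture 2 *Rps7* peaked between 10 and 12.5 (6.19% of cells) and again between 30 and 32.5 (5.88%), with 4.69% between 20 and 22.5. *Rps27* had few cells near 0, and its median was 24.9 and 26.2, while 24.8% and 27.0% of cells lay between 35 and 60. *Rpl32*, by contrast, formed a single hump with a median of 59.6 in culture 1 and 64.4 in culture 2 and a coefficient of variation (SD over mean) of 0.212 and 0.215. Among the subunit genes the coefficient of variation exceeded 0.4 in both cultures for 4, *Rps7*, *Rps27*, *Rpl36a* and *Rpl5*, and the lowest was 0.185. Ribosomal protein genes have many processed copies in the genome, and in 57 of the 63 the last 300 bases of a transcript hold a stretch of 60 bases that also occurs in a transcript of another annotated gene. *Rps7* shares one with 13 genes, *Rpl23a* with 19 and *Rps27* with 7, but *Rpl21* with 55 and *Rps2* with 53, and those had coefficients of 0.185 and 0.223 in culture 1. The part of such copies in the uneven values was not tested.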

How the data were processed

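Single-cell 3′ RNA-seq of 2 replicate neurosphere cultures of 1 condition was analysed from the deposited tables. By the methods, the authors quantified spliced counts with Alevin (Salmon 1.3.0, also listed in the submitters' processing notes with Seurat 3.2.2) on GRCm38, and removed cells that stood apart in total UMIs, genes, mitochondrial share or doublet score. Mitochondrial and rarely expressed genes were removed as well. The paper and the labels differ in the version of the library kit. The expression table holds a linear signal, scaled by the authors to the depth of a cell. Total UMIs, as deposited, add up estimated counts over genes, and the cell-cycle position and stages are deposited per cell. Values do not recover whole reads, so no count model was used and cells were not thinned to a common depth. All deposited cells were kept, and doublets were treated only by the authors' filter.

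Symbols were found for 10662 of the 10666 genes, and 63 fit the naming rule. Values were transformed as log2(value + 1) and fitted by least squares on 2 harmonics of the position in each culture, over all genes (Python 3.11.15, numpy 2.4.6, scipy 1.17.1, pandas 2.3.3, matplotlib 3.10.9). Position classes are 0.25π wide. The fit was tested on values permuted among cells, with a known cosine added to some genes. The amplitude of that cosine equalled the SD of the gene over cells. Such curves are stronger than those of the genes called here, so how well weak curves near the threshold are found was not tested. Culture means were compared at 1.25-fold. Protein lengths and transcript ends come from GENCODE vM21, an earlier release than that of the authors. Cells were not treated as replicates. At a median of 19477 and 14637 UMIs per cell, low values are less precise in culture 2.

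The members and lists were chosen with earlier results of these data known. Named genes are the 10 highest and 5 lowest in mean, the 8 highest in the lower R², the 8 largest in range, the 5 at each end of the culture ratio, relatives with their parents, the P-stalk, 5S particle and X-linked genes, the lists of translation, biogenesis and check genes, and the 10 other genes most correlated with the group. A few genes under this rule are not reported here. Alternatives were other thresholds, harmonics, pseudocounts, scalings, depth in the fit, a filter on genes detected in under 5% of cells, a loess line with a span of 0.3, classes, a 1.5-fold limit, subsets of cells or members, the median over cells, and each culture left out.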

Additional observations from a re-analysis of the deposited data

How the results depend on the processing

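Of the alternatives to the count of 2 genes that followed the position, 5 moved it past 1.5 times. The count was 6 at an R² of 0.02 (against 8.34% of all genes), 0 at 0.1 (2.25%), 1 with 1 harmonic (*Rps14*, 3.81%), 7 with values multiplied by total UMIs (5.51%), and 0 relative to the other members (4.54%), where *Rps27l* had an R² of 0.049. The 7 under multiplication by total UMIs were *Rpl37a*, *Rpl39*, *Rpl41*, *Rplp1*, *Rps16*, *Rps29* and *Rpsa* and did not include *Rps27l* or *Rps14*, and total UMIs themselves change with the position. With depth in the fit the count stayed at 2 but the genes were *Rps27l* and *Rpl27a*. With culture 1 or culture 2 left out the count was 3 and 3 (against 4.26% and 5.6% of all genes), the summed share 25.2 and 22.8%, and its range along the position 1.83 and 0.792 points. The mean over cultures of the share, 24.0%, lay between 22.6 and 24.1% under the other alternatives run, and that of its range, 1.31 points, between 1.247 and 1.74 points. Within culture 1 that range moved more, from 0.577 with depth in the fit to 1.29 with 3 harmonics and 1.74 by class means, and within culture 2 it was 1.74 to 2.13. *Rpl23a* and *Rps7* were the only genes past the limit between cultures under each of the 4 alternatives, against 33.2% of all genes divided by the sum over the group, 4.62% at 1.5-fold, 26.1% in cells with 10000 to 20000 UMIs and 28.9% in M.G1 cells. The count without cells from 5π/4 to 7π/4, and the share without *Rps7*, *Rpl23a*, *Rpl36a* and *Rps27* or in cells with 10000 to 20000 UMIs, were chosen after seeing the data. No paired analysis was possible because there is 1 condition with no groups to pair.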
